A study of Mus musculus with 35 samples.

Results

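Control skin of week 4, in a study of mice irradiated on the flank, was compared with skin of sham mice across all genes. The comparison used 7 of the 35 RNA sequencing libraries of the series: the 4 libraries titled control, week 4, and the 3 libraries titled sham. The members were taken from the sample titles and from no measured value. Control week 4 libraries are numbered replicate 1 to 4 and sham libraries replicate 1 to 3, as in the titles.

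All mice were 10-week-old females of the inbred strain C57BL/6J, 19 in number, in 5 groups. Radiated mice received 25 Gy to the left flank at 3.6 Gy/min over 420 s, and sham mice received no radiation. Control skin is read here as unirradiated skin of the radiated mice, because the 19 mice gave 35 samples. The sources used here do not say from which site on the body it was taken. They also do not say when the sham mice were biopsied, nor whether sham mice were shaved as the radiated mice were. Control week 4 and sham skin therefore differ in mouse, in radiation elsewhere on the body, and possibly in site, shaving, age and time of day. These cannot be told apart in this comparison. The question it addresses is how far skin used as a within-mouse control resembles skin of mice never irradiated.

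Hair follicles cycle between growth (anagen), regression and rest (telogen). Cells of the growing bulb build the hair shaft from hair keratins and keratin-associated proteins, and the inner root sheath, which moulds the shaft, from its own keratins and trichohyalin, while melanocytes make pigment only during growth. Immediate early genes are transcription factors and feedback regulators whose transcripts appear quickly, without new protein synthesis, after growth factor, injury or stress signals.

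The promoters of the hair genes are shown first because these genes had the largest differences of the comparison. Of the inner root sheath genes tested, 11 had a RefSeq promoter, and 8 of them (72.7%) held the letters TATAAA on either strand in the 250 bases before the start. The motif was in 6 of 9 hair shaft keratin promoters (66.7%) and in 28 of 33 keratin-associated protein promoters (84.8%). It was in 12.4% of all 32851 promoters and in 9.04% of the 16394 promoters of genes tested. The bases upstream of 5 of these genes are printed 5′ to 3′ from RefSeq on GRCm38.p6 (the mm10 build) with TATAAA in capitals. In them the motif begins between 28 and 40 bases before the RefSeq start, from which all distances here are counted. For Krt71 that start lies inside the gene's GENCODE span, so the first bases upstream of it fall within that span.
Krt71, chr15:101743098-101743217, minus strand: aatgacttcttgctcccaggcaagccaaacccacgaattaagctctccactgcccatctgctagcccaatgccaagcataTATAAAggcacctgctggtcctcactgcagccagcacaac
Krt25, chr11:99322952-99323071, minus strand: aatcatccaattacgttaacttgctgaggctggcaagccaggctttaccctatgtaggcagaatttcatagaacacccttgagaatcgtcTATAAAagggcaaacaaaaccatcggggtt
Krt34, chr11:100041555-100041674, minus strand: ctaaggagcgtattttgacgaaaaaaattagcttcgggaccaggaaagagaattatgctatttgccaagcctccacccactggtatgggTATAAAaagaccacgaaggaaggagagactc
Krtap8-1, chr16:89487953-89488072, minus strand: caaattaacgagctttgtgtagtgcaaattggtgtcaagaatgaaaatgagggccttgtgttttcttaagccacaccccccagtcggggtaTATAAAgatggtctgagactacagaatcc
Krtap11-1, chr16:89571184-89571303, minus strand: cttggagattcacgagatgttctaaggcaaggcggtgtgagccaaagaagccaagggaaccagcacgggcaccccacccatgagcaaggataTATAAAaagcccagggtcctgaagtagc
A match describes these letters in this window and is not evidence of a factor acting there.

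The 7 libraries held between 17362853 and 26824552 estimated counts. Each library was 1 replicate: no 2 were identical, and all 9 pairs within the 2 groups differed by more than sampling noise. Levels are given as CPM, counts per 1e6 of the library size after TMM scaling over all 35 libraries, and are compared between libraries, not between genes. Of 17925 genes tested, 655 (3.65%) passed an adjusted p of 0.05 in edgeR's quasi-likelihood test with Benjamini-Hochberg adjustment. Of these, 315 were higher (1.76%) and 340 lower (1.9%) in control week 4 skin. The 2 directions differed in size: the lower genes had a median log2 ratio of -2.999 and the higher genes one of 0.87. A change of more than 4-fold was found for 214 of the lower genes and 19 of the higher genes. The median over all genes tested was -0.03. Fold changes are given as the log2 ratio of control week 4 to sham skin unless another pair is named.

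**Figure D1:**
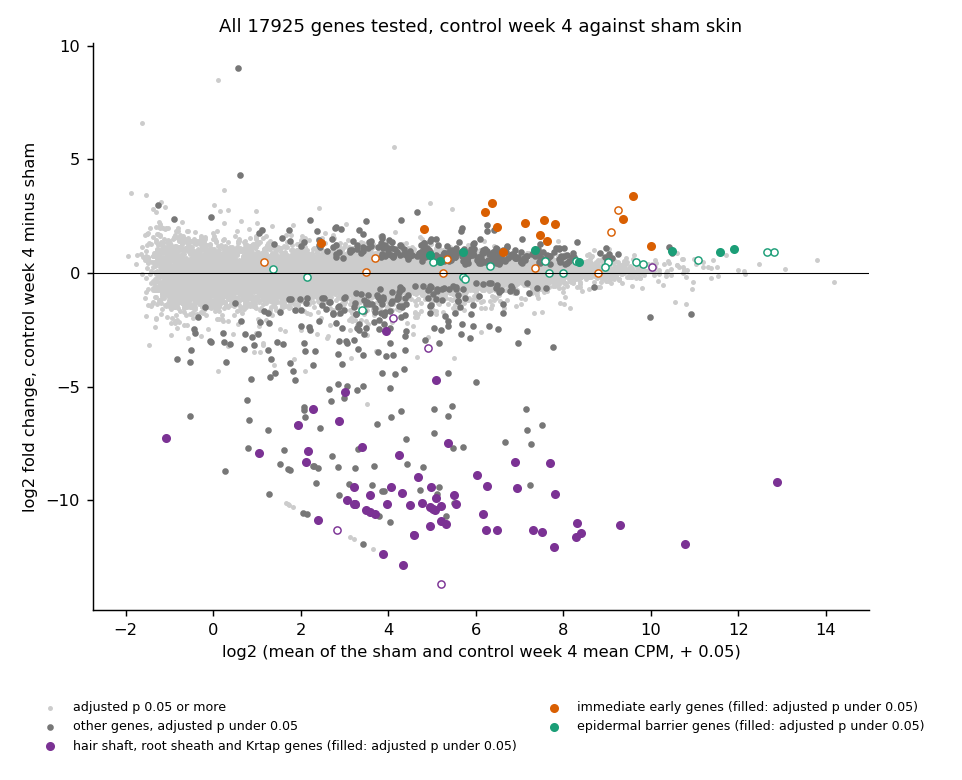
Log2 fold change (control week 4 minus sham, vertical axis) against log2 of the mean level in CPM (horizontal axis) for each of the 17925 genes tested. Hair shaft, inner root sheath and keratin-associated protein genes (purple) fill the lower part of the plot, while immediate early genes (orange) and epidermal barrier genes (green) lie mostly above 0; filled points passed an adjusted p of 0.05.

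The number of genes called changed when single libraries were left out. Without control week 4 replicate 2, 3 or 4 the test called 1, 2 and 0 genes (3122, 3107 and 2908 genes had an unadjusted p under 0.05), and without replicate 1 it called 312. Without sham replicate 1 it called 1705 genes, without replicate 2 it called 281 and without replicate 3 it called 162. All 655 genes kept their direction in every one of these fits. They were called on these same libraries, and each fit reused all but 1 of them, so this is not independent support. Of the lists of hair products, hair regulators, pigment, immediate early and epidermal barrier genes, no member passed when control week 4 replicate 2, 3 or 4 was left out, and the list medians without them are given beside the counts.

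**Figure D2:**
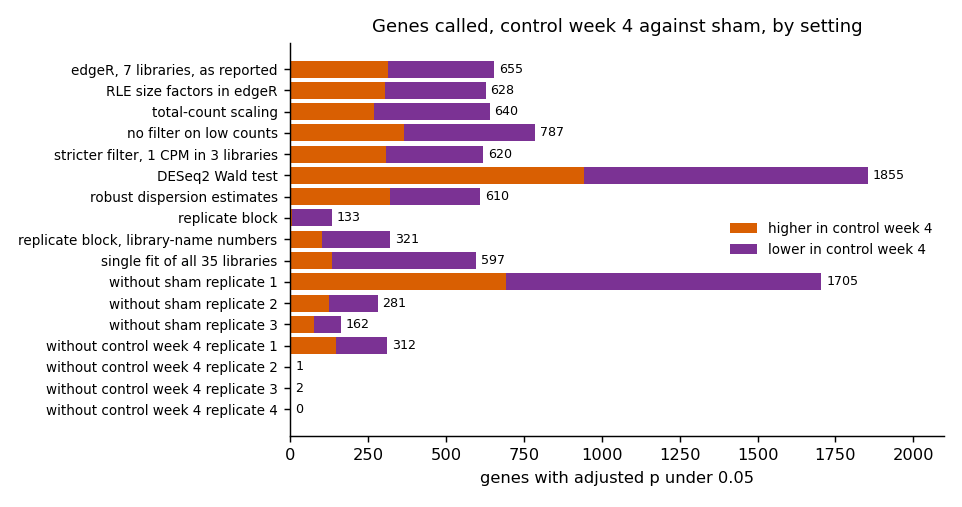
Number of genes with an adjusted p under 0.05 (horizontal axis, bars from 0) in control week 4 against sham skin for each way of fitting or each library left out (vertical axis). Orange is the number higher and purple the number lower in control week 4; leaving out control week 4 replicate 2, 3 or 4 took the count from 655 to 1, 2 and 0.

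Most genes of the inner root sheath fell. Of 12 tested, 10 were lower in control week 4 skin and 0 higher, with a median log2 ratio of -9.28 (-9.64 to -9.14 without control week 4 replicate 2, 3 or 4). Krt71, a type II keratin of the inner root sheath (chromosome 15, 101733949 to 101743109 in mm10), stood at 499.7, 4968 and 5148 CPM in sham replicates 1 to 3. It stood at 1.64, 0.663, 0.598 and 0.884 CPM in control week 4 replicates 1 to 4. All 4 control libraries lay below the lowest sham library, and sham replicate 1 was far below the other sham libraries. The log2 ratio of Krt71 was -11.90 ± 0.98 (SE, adjusted p = 0.00734), a sham level 3877 times that of control week 4 (95% counting interval 3127 to 4867). This interval covers only the counting error of the control week 4 counts and leaves out the wide spread among the sham libraries.

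Other keratins of the sheath also fell, with sham replicate 1 the lowest sham library in each. Krt25, the type I keratin that pairs with type II root sheath keratins, stood at 160.8, 1436 and 2165 CPM in sham and at 0.688, 0.265, 0.854 and 0.538 CPM in control week 4 (log2 ratio -11.07 ± 0.99, SE; adjusted p = 0.00734). Krt27 fell by 11.42, Krt28 by 8.32, Krt72 by 11.59 and Krt73 by 11.31 on the log2 scale. Tchh encodes trichohyalin, the granule protein that hardens the sheath and the hair medulla. It stood at 1304, 19680 and 24270 CPM in sham and at 28.9, 27.5, 30.1 and 18.4 CPM in control week 4 (log2 ratio -9.18 ± 0.97, SE; adjusted p = 0.00902). Padi3, an enzyme that converts arginine in trichohyalin to citrulline, fell by 9.37 ± 1.13 (SE; adjusted p = 0.0117). Only Tgm3 and Gata3 of this list did not pass. Gata3, a transcription factor of the sheath lineage that the epidermis also expresses, stood at 1014, 840 and 988 CPM in sham and at 1063, 1272, 1214 and 1078 CPM in control week 4 (adjusted p = 0.243). The sum over the list in the control week 4 libraries was 1111, 1308, 1253 and 1105 CPM, so that Gata3 made up most of it. That sum therefore differs less between the groups than the sheath keratins do.

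All 14 hair shaft keratin genes tested were lower, with a median log2 ratio of -8.43 (-8.53 to -8.34 without control week 4 replicate 2, 3 or 4), and 13 of them did not overlap between groups. Without sham replicate 3, 9 were lower. Of all genes tested, 20.8% did not overlap, and 9.64% lay below sham in this way. Krt81, a type II hair keratin of the shaft cortex, stood at 52.1, 557 and 718 CPM in sham. In control week 4 it had 1, 2, 3 and 3 counts, 0.0529 to 0.128 CPM, and its log2 ratio was -12.06 ± 1.10 (SE; adjusted p = 0.00734). Krt34, a type I cortex keratin, stood at 14.0, 234 and 292 CPM in sham and at 0, 0.0442, 0.0854 and 0.115 CPM in control week 4 (log2 ratio -11.32 ± 1.28, SE; adjusted p = 0.0106). Krt83 fell by 11.38 and Krt33a by 11.29 on the log2 scale. The smallest fall in the list was that of Krt32, a keratin of the hair cuticle, at 5.83, 33.5 and 38.9 CPM in sham and 2.81, 5.13, 5.04 and 5.11 CPM in control week 4 (log2 ratio -2.54 ± 0.55, SE; adjusted p = 0.0474). Krt84 was the 1 member whose groups overlapped. Its sham values were 2.38, 141 and 53.8 CPM and its control week 4 values 1.77 to 3.44 CPM.

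Keratin-associated proteins form the matrix between the keratin filaments of the shaft. Of 58 such genes, 39 had enough counts to be tested, and 36 of these were lower and 0 higher. The median log2 ratio was -10.15, or -9.99 with the 6 tested genes at 0 in every control week 4 library set to the bound that 3 counts allow. Without control week 4 replicate 2, 3 or 4 the median was between -10.20 and -9.97. Without sham replicate 3, 13 were lower, and without sham replicate 1, when more of the genes were tested, 54 were. Krtap11-1 stood at 4.19, 56.1 and 60.8 CPM in sham and had no count in any control week 4 library, so that it was at least 1223-fold lower when 3 counts over the group are taken as the floor (adjusted p = 0.030). Krtap22-2 was likewise at 0 in all 4 and at least 892-fold lower (adjusted p = 0.0409). Krtap8-1 stood at 2.91, 65.6 and 76.4 CPM in sham and had 1 count in 1 control week 4 library (log2 ratio -11.52, adjusted p = 0.013). For that gene the ratio of sham to control week 4 was 4391 with a 95% counting interval of 788 to 173400. The 3 tested genes that did not pass were Krtap4-7 (adjusted p = 0.0558), Krtap16-3 (adjusted p = 0.0605) and Krtap3-2 (adjusted p = 0.0614), with log2 ratios of -13.70, -11.30 and -3.30. Lyg2, a goose-type lysozyme gene, followed the same pattern outside the lists, at 3.27, 69.4 and 68.2 CPM in sham and 1 count in the 4 control week 4 libraries (log2 ratio -11.48 ± 1.45, SE; adjusted p = 0.0129). Its ratio of sham to control week 4 was 4269 with a 95% counting interval of 766 to 168600, and the log2 ratio ran from -13.00 to -11.09 when 1 library was left out. Many of the keratin-associated protein genes are near-identical copies in clusters, and the estimated counts can be shared among copies, so single values are less certain than the sum.

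In bulk skin, fewer cells of a type and less RNA per cell cannot be told apart. Summed over each list, sham replicates 1 to 3 held 281.4, 2769 and 3650 CPM of hair shaft keratins and 124, 3637 and 3380 CPM of keratin-associated proteins. The 4 control week 4 libraries held 8.47 to 10.6 CPM and 5.88 to 9.36 CPM. Sham replicate 1 was the lowest sham library in both sums and still lay far above every control week 4 library. In the 12 control libraries of weeks 1 to 3 the shaft keratin sum ran from 6.33 to 1067 CPM with a median of 9.31, and 5 of the 12 lay above the highest control week 4 library. Radiated skin of week 4 had shaft keratin sums from 4.82 to 409.4 CPM.

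**Figure D3:**
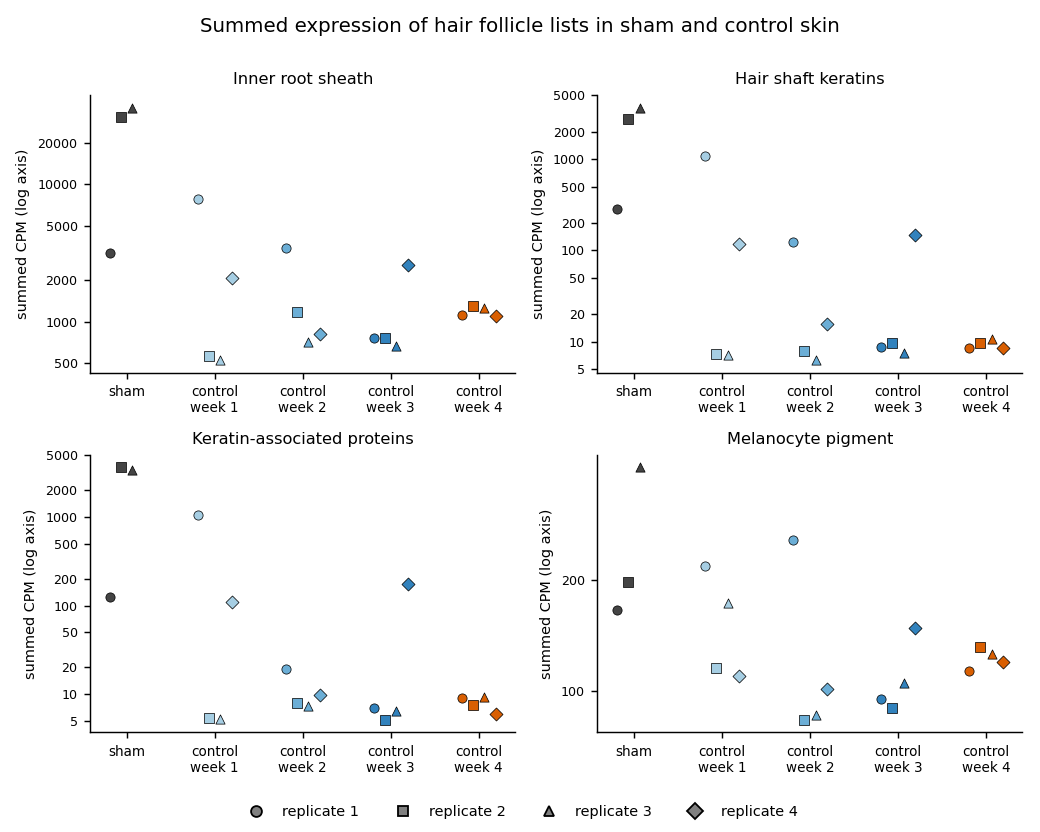
Summed CPM (log axis) of inner root sheath, hair shaft keratin, keratin-associated protein and melanocyte pigment genes in each library of sham skin and of control skin of weeks 1 to 4, with marker shape giving the replicate. Control week 4 libraries sit close together and below all 3 sham libraries in each panel, while the highest hair shaft keratin sums of weeks 1, 2 and 3 are 1067, 124 and 147 CPM. Most of the inner root sheath sum of control week 4 is Gata3, which did not fall, so that panel understates the fall of the sheath keratins.

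Of the list of hair matrix and growth-phase genes, most of them regulators of the bulb, some were lower. Of 20 tested, 7 were lower and 0 higher (Shh, Lef1, Msx1, Msx2, Dlx3, Hoxc13 and Dsg4), with a median log2 ratio of -1.42. Without control week 4 replicate 2, 3 or 4 the median was -1.52 to -1.30, and without sham replicate 3 it was -0.61. The number lower was 11, 4 and 3 without sham replicate 1, 2 or 3 and 3 without control week 4 replicate 1. The block by title number left 1 and that by library-name number 3. Shh, the secreted signal made by the hair matrix, stood at 9.71, 6.50 and 23.6 CPM in sham and at 1.22, 1.59, 0.812 and 0.961 CPM in control week 4 (log2 ratio -3.55 ± 0.47, SE; adjusted p = 0.0134). Lef1, the transcription factor that relays Wnt signals in the matrix, stood at 50.1, 54.6 and 204 CPM in sham and at 12.7, 17.4, 13.8 and 14.2 CPM in control week 4 (log2 ratio -2.84 ± 0.48, SE; adjusted p = 0.0209). For both genes the groups did not overlap and sham replicate 3 was the highest. Hoxc13, a direct regulator of hair keratin genes, stood at 22.2, 85.7 and 79.0 CPM in sham and at 9.40 to 12.3 CPM in control week 4 (log2 ratio -2.52 ± 0.40, SE; adjusted p = 0.019). Dsg4, a desmosomal cadherin of the shaft, fell by 7.02 ± 0.90 (SE; adjusted p = 0.013).

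The sham libraries differed among themselves in which hair genes were high. Sham replicate 3 had a far higher Lef1 level than replicate 2, whereas their shaft keratin sums were close. Sham replicate 1, with the lowest shaft keratin sum, had a Lef1 level close to that of replicate 2. Foxn1, a transcription factor of shaft differentiation, stood at 11.9, 49.8 and 58.5 CPM in sham and at 8.57 to 12.0 CPM in control week 4, and it did not pass (adjusted p = 0.0574).

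Of 17 genes of hair follicle stem cells and resting follicles, 1 was higher and 0 were lower, where 1.76% of all genes tested were higher. A single call in a list of this size shows little by its count. The median was -0.21. It was 0.10 and 0.12 without sham replicate 1 or 2, 0.11 without control week 4 replicate 1, and negative without any other single library. Summed over the list, sham libraries held 3776 to 6492 CPM and control week 4 libraries 7120 to 8858 CPM. DESeq2 called 4 higher and 2 lower, as against 4 and 3 without sham replicate 1. None passed with RLE scaling, robust dispersion estimates, the stricter filter, the fit of all 35 libraries or any 1 of the other 6 libraries left out. Fgf18, a growth factor made by the resting bulge that holds follicles in telogen, stood at 13.4, 6.72 and 5.53 CPM in sham and at 16.6, 27.5, 27.5 and 23.0 CPM in control week 4 (log2 ratio 1.46 ± 0.33, SE; adjusted p = 0.0499). All 4 control libraries lay above the 3 sham libraries. Krt15, a bulge and basal layer keratin, had a log2 ratio of 0.80 (adjusted p = 0.106), Cd34 one of 0.40 (adjusted p = 0.298) and Lgr5 one of -1.15 (adjusted p = 0.110).

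Pigment genes of melanocytes were lower in 4 of 14 tested and higher in 0, with a median log2 ratio of -2.25 (-2.39 to -2.14 without control week 4 replicate 2, 3 or 4, and -1.04 without sham replicate 3). The number lower was 8, 6 and 2 without sham replicate 1, 2 or 3 and 1 without control week 4 replicate 1. DESeq2 called 8 lower, and the block by title number 0. Tyr, the enzyme that starts melanin synthesis, stood at 4.99, 1.52 and 16.9 CPM in sham and at 0.794, 0.575, 0.470 and 1.04 CPM in control week 4 (log2 ratio -3.43 ± 0.73, SE; adjusted p = 0.0455). Dct, a later enzyme of the pathway, stood at 32.6, 23.1 and 110.4 CPM in sham and at 9.90, 11.5, 10.3 and 9.73 CPM in control week 4 (log2 ratio -2.43 ± 0.48, SE; adjusted p = 0.036). Sham replicate 3 was highest in both genes, and in neither did the groups overlap. The melanosome transporters Slc45a2 and Slc24a5 were the other members that fell. Mitf, the lineage's master transcription factor, had a log2 ratio of -0.33 (adjusted p = 0.521) and Sox10, a neural crest factor, one of 0.80 (adjusted p = 0.159).

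For genes of mitosis and DNA replication the share that passed was near that of all genes tested (3.65%). Of 26 tested, 1 (Mcm5, a subunit of the replicative helicase) was lower, with a list median of -0.66 (4 lower by DESeq2, 0 with total-count scaling). Mki67, a marker of cycling cells, stood at 216, 175 and 344 CPM in sham and at 226, 186, 96.5 and 81.3 CPM in control week 4, so that the groups overlapped (log2 ratio -0.75 ± 0.38, SE; adjusted p = 0.289).

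Many, but not all, immediate early genes rose in control week 4 skin. Of 23 tested, 14 were higher and 0 lower in control week 4 skin, with a median log2 ratio of 1.66 (1.51 to 1.67 without control week 4 replicate 2, 3 or 4). With sham replicate 2 or 3 left out 4 and 2 members passed, with robust dispersion estimates 8 did, and with the titles' replicate number as a block 1 did. Most calls of the comparison lay outside the 43 gene lists, which held 114 of the 655. The 14 were Fos, Atf3, Nr4a1, Egr1, Dusp1, Ccn1, Zfp36, Ier2, Klf2, Junb, Btg2, Nr4a2, Klf4 and Jund.

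Fos, a subunit of the AP-1 transcription factor (chromosome 12, 85473890 to 85477273 in mm10), stood at 179.7, 197 and 23.7 CPM in sham and at 512, 2041, 1662 and 1401 CPM in control week 4. Every control library exceeded every sham library, control replicate 1 being the lowest of its group and sham replicate 3 the lowest of all. The log2 ratio of Fos was 3.39 ± 0.76 (SE; adjusted p = 0.0499). Atf3, a stress-induced repressor, stood at 23.3, 19.5 and 9.19 CPM in sham and at 73.0, 258, 162 and 95.6 CPM in control week 4 (log2 ratio 3.07 ± 0.51, SE; adjusted p = 0.0205). Nr4a1, an orphan nuclear receptor, stood at 30.1, 19.5 and 9.81 CPM in sham and at 91.1, 189.5, 129.5 and 105 CPM in control week 4 (log2 ratio 2.69 ± 0.40, SE; adjusted p = 0.0161). Again control replicate 2 was highest and control replicate 1 lowest.

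Egr1, a zinc finger transcription factor, stood at 180.2, 298 and 149 CPM in sham and at 663, 1486, 1177 and 1078 CPM in control week 4 (log2 ratio 2.39 ± 0.33, SE; adjusted p = 0.0151). Dusp1 and Zfp36, which act in negative feedback, were also among the genes that rose. Dusp1, a phosphatase that switches off MAP kinases, stood at 83.4, 81.1 and 22.5 CPM in sham and at 159.6, 405, 374 and 313 CPM in control week 4 (log2 ratio 2.32 ± 0.49, SE; adjusted p = 0.0441). Zfp36, which destabilises cytokine transcripts, stood at 80.9, 107 and 55.5 CPM in sham and at 165, 568, 407 and 341 CPM in control week 4 (log2 ratio 2.18 ± 0.41, SE; adjusted p = 0.0296). The matricellular gene Ccn1 had a log2 ratio of 2.19 ± 0.45 (SE; adjusted p = 0.0409).

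**Figure D4:**
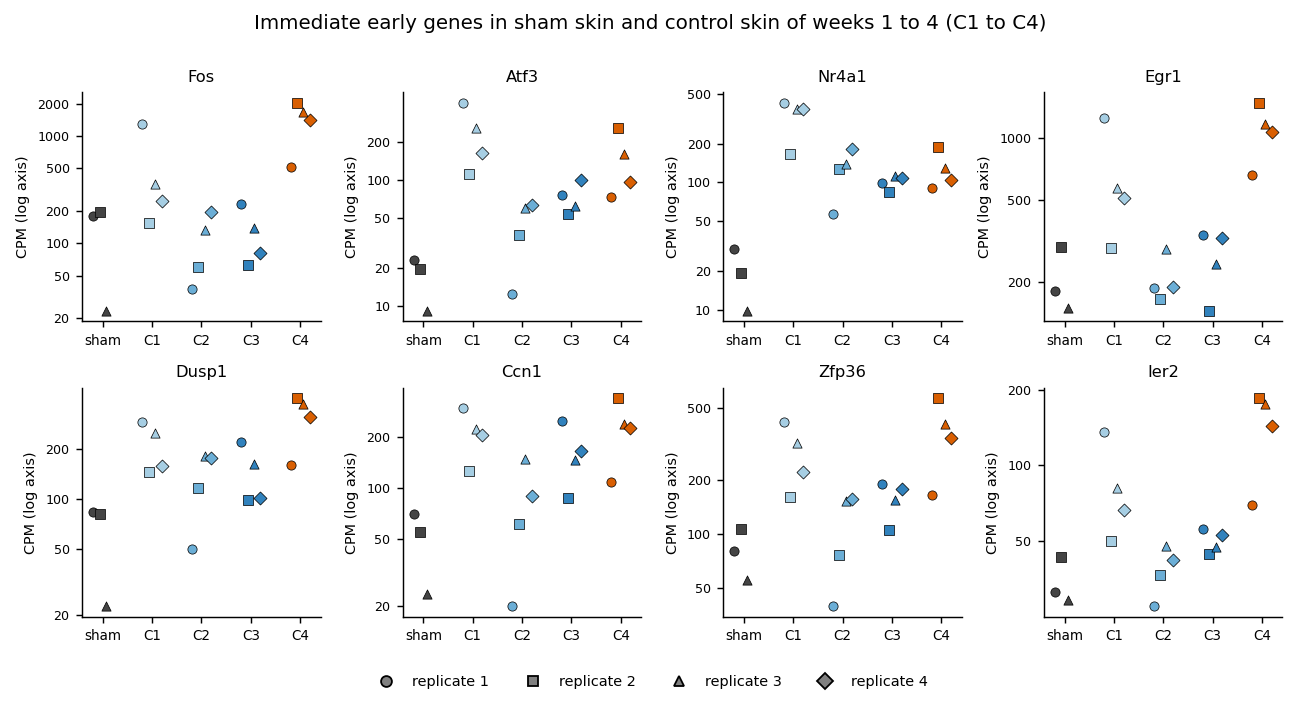
CPM (log axis) of 8 immediate early genes in each library of sham skin and of control skin of weeks 1 to 4 (C1 to C4), with marker shape giving the replicate. In each panel the 4 control week 4 libraries lie above the 3 sham libraries, and control week 1 replicate 1 is as high as some of them. For Nr4a1, control week 1 replicates 1, 3 and 4 lie above every control week 4 library, and for Atf3 replicates 1 and 3 do. In the other panels no control week 1 library does.

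Members that did not pass were Fosb, Jun, Ier3, Ccn2, Fosl1, Egr3, Nr4a3, Egr2 and Fosl2. Fosb, an AP-1 subunit, had a log2 ratio of 2.78 with a SE of 1.00 (adjusted p = 0.158), its sham values being 223, 234 and 8.42 CPM and its control week 4 values 281 to 1539 CPM. Jun stood at 198, 353 and 169.7 CPM in sham and at 321 to 1270 CPM in control week 4, so that the groups overlapped (log2 ratio 1.82; adjusted p = 0.0653). Egr2, Fosl2 and Nr4a3 had log2 ratios of 0.01, -0.00 and 0.06. Summed over the list, sham libraries held 1863 to 3232 CPM and control week 4 libraries 4850 to 11750 CPM. Control libraries of week 1 held 5504 to 9940 CPM, those of week 2 2416 to 4762 CPM and those of week 3 3407 to 5300 CPM.

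Promoters of 2 members that rose are printed with their motifs, as the hair promoters were. TATAAA was in 3 of the 18 members with a promoter (16.7%), against 10.9% of genes tested. TGACGTCA, the full cyclic AMP response element, a palindrome that cannot overlap TATAAA, was in 2 of 18 (11.1%), against 2.6% of genes tested and 1.77% of all genes with a promoter. Fos holds TATAAA 33 bases before its start and Dusp1 holds TGACGTCA 143 bases before its RefSeq start, which lies inside its GENCODE span.
Fos, chr12:85473770-85473889, plus strand: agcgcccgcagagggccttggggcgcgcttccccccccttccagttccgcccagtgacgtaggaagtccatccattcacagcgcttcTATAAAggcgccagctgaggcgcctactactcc
Dusp1, chr17:26508473-26508672, minus strand: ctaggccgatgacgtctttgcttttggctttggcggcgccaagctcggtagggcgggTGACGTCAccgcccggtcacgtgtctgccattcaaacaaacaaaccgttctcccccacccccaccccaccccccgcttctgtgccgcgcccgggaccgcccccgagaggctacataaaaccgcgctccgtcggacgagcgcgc

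The other named increases had varied roles. Ptgs2, the inducible cyclooxygenase, stood at 5.25, 2.69 and 3.31 CPM in sham and at 18.5, 27.5, 19.2 and 9.57 CPM in control week 4 (log2 ratio 2.30 ± 0.38, SE; adjusted p = 0.0207). Il22ra2, a soluble receptor that binds and blocks interleukin 22, stood at 9.10, 4.64 and 5.53 CPM in sham and at 18.0, 19.6, 50.02 and 43.2 CPM in control week 4 (log2 ratio 2.34 ± 0.44, SE; adjusted p = 0.0313). Irx6, a homeobox factor, stood at 1.85, 1.78 and 0.826 CPM in sham and at 6.99, 5.26, 8.50 and 10.0 CPM in control week 4 (log2 ratio 2.35 ± 0.35, SE; adjusted p = 0.0161). The highest control week 4 library was replicate 2 for Ptgs2, replicate 3 for Il22ra2 and replicate 4 for Irx6. Galnt15, which starts mucin-type glycosylation, had a log2 ratio of 2.12 ± 0.38 (SE, adjusted p = 0.0256). Of the 7 fits that left out a library, Ptgs2, Il22ra2 and Galnt15 each passed in 2 and Irx6 in 4.

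Some genes of the outer, differentiating epidermis rose. Of 26 tested, 8 were higher and 0 lower, with a median log2 ratio of 0.50 (0.46 to 0.54 without control week 4 replicate 2, 3 or 4). With total-count scaling 5 were higher, and DESeq2 called 14 higher and 1 lower. A single fit of all 35 libraries called 0, and the blocks by title number and by library-name number called 0 and 1. Without sham replicate 1, 2 or 3 the number was 13, 2 and 3, and without control week 4 replicate 1 it was 2. Flg2, a filaggrin-family protein of the cornified layer, stood at 3199, 2138 and 2038 CPM in sham and at 6023, 4203, 5473 and 4880 CPM in control week 4 (log2 ratio 1.06 ± 0.21, SE; adjusted p = 0.0366). Krtdap, a secreted product of differentiating keratinocytes, stood at 134, 108 and 81.9 CPM in sham and at 218 to 223 CPM in control week 4 (log2 ratio 1.03 ± 0.15, SE; adjusted p = 0.0161). Lor, which encodes the cornified envelope protein loricrin, stood at 40.8, 30.3 and 35.8 CPM in sham and at 77.9, 54.5, 73.6 and 68.3 CPM in control week 4 (log2 ratio 0.93 ± 0.16, SE; adjusted p = 0.0207). In each of the 3 genes every control library was above every sham library.

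The other barrier genes that rose were Sbsn, the protease inhibitor Spink5, the protease Klk5, the lipoxygenase Alox12b and the lipid transporter Abca12. Members that did not pass included Krt1, with a log2 ratio of 0.28 (adjusted p = 0.555), Casp14, with one of -0.18 (adjusted p = 0.414) and Klk7, with one of 0.01 (adjusted p = 0.987). Of 9 genes of the basal layer, 0 passed in edgeR's test in either direction (4 had an unadjusted p under 0.05, and DESeq2 called 3 higher and 1 lower), and their median was 0.22. The epidermal differentiation sum was 25370, 20260 and 15850 CPM in sham and 34060 to 39750 CPM in control week 4. It moved opposite to the hair shaft sum between the groups, and whether the 2 are linked was not tested.

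Genes of keratinocyte stress fell where they passed. Of 12 tested, 2 were lower and 0 higher, and without sham replicate 1 this was 5 lower. Without any 1 of the other 6 libraries 0 passed. DESeq2 called 4 lower and 1 higher. Sprr1a, a cornified envelope precursor, stood at 48.7, 689.9 and 441 CPM in sham and at 60.8, 44.4, 34.5 and 26.8 CPM in control week 4, so that sham replicate 1 lay within the control range (log2 ratio -3.26 ± 0.71, SE; adjusted p = 0.0474). Krt6a, a keratin of the follicle companion layer and of activated epidermis, stood at 127.5, 884 and 264 CPM in sham and at 119 to 161 CPM in control week 4 and did not pass (log2 ratio -1.55 ± 0.54, SE; adjusted p = 0.147). It passed in 1 of the 7 fits that left out a library, without sham replicate 1 (log2 ratio -1.98; adjusted p = 0.0166), and without sham replicate 2 its log2 ratio was -0.43 (adjusted p = 0.378).

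Single genes of collagen and its processing were lower, where 1.9% of all genes tested were. Of 23 matrix genes tested 2 were lower, Col1a1 and Tnc, and of 18 genes of collagen modification 1 was lower, Plod2. DESeq2 called 7 lower and 1 higher of the 23 and 3 lower of the 18. The list medians were -0.33 and -0.28, and without sham replicate 2 they were -0.04 and -0.06. Plod2, the lysyl hydroxylase that prepares collagen for stable crosslinks, stood at 35.5, 37.4 and 35.1 CPM in sham and at 7.83, 7.83, 4.06 and 5.27 CPM in control week 4 (log2 ratio -2.54 ± 0.23, SE; adjusted p = 0.00734). Its sham values were close to one another and far above all control values. Col1a1, a chain of type I collagen, stood at 2701, 4401 and 1940 CPM in sham and at 1159, 1156, 456 and 678 CPM in control week 4 (log2 ratio -1.82 ± 0.38, SE; adjusted p = 0.0418). It passed in 1 of the 7 fits that left out a library, and Plod2 in 5. Col1a2, its partner chain, and Col3a1 had log2 ratios of -1.26 (adjusted p = 0.0728) and -1.38 (adjusted p = 0.0947).

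Some fat and lipid genes were higher, where 1.76% of all genes tested were. Of 15 adipocyte genes 1 was higher, Retn, which encodes the adipokine resistin, at 6.27, 9.32 and 5.58 CPM in sham and 34.0, 19.3, 12.4 and 22.0 CPM in control week 4 (log2 ratio 1.62 ± 0.34, SE; adjusted p = 0.0447). The list median was 0.87. Retn passed in 0 of the 7 fits that left out a library, and DESeq2 called 4 of the 15 higher. Adipoq, which encodes adiponectin, had a log2 ratio of 1.08 ± 0.45 (SE; adjusted p = 0.213). Of 14 genes of fatty acid synthesis 2 were higher, Dgat2, which completes triglycerides, and Thrsp. Thrsp, an activator of fatty acid synthesis, stood at 5.74, 11.3 and 3.00 CPM in sham and at 79.2, 32.9, 22.9 and 40.1 CPM in control week 4 (log2 ratio 2.69 ± 0.55, SE; adjusted p = 0.039). The list had 0 calls without sham replicate 3 or any 1 control week 4 library.

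Lists of immune cells, stress responses and energy metabolism had 0 or 1 calls each among those given here, beside 3.65% of all genes tested, so that lists of this size show little by their counts. Of 20 p53 target genes none passed in edgeR's test, 5 had an unadjusted p under 0.05, and DESeq2 called 2 higher and 1 lower. Of 24 interferon-stimulated, 17 macrophage and 79 oxidative phosphorylation genes none passed with either tool, and 4, 0 and 3 had an unadjusted p under 0.05. Of 13 glucocorticoid response genes 0 passed in edgeR's test, 5 had an unadjusted p under 0.05, and DESeq2 called 5 higher. Cdkn1a, the p53 target that halts the cell cycle, stood at 317, 478 and 356 CPM in sham and at 463 to 505 CPM in control week 4 (log2 ratio 0.32 ± 0.15, SE; adjusted p = 0.246). S100a8, a neutrophil and keratinocyte alarmin, was under 1 CPM in all 7 libraries (log2 ratio 0.85; adjusted p = 0.594). Cd3d, a subunit of the T cell receptor complex, was the 1 of 14 T cell genes tested that passed, and DESeq2 also called 1 higher. With either replicate block, in the fit of all 35 libraries, or without sham replicate 3, 0 T cell genes were lower. The same held without control week 4 replicate 2, 3 or 4. The list median was 0.46, and 6 members lay above sham without overlap against 1 below (11.2% and 9.64% of all genes tested). The summed level was 59.4, 75.1 and 64.3 CPM in sham and 74.2 to 77.7 CPM in control week 4. Cd3d stood at 14.6, 22.8 and 21.7 CPM in sham and 8.20 to 9.34 CPM in control week 4 (log2 ratio -1.18 ± 0.18, SE; adjusted p = 0.0163). Of 22 skeletal muscle genes 0 passed with either tool, and 0 had an unadjusted p under 0.05. Their sum was 63270, 20190 and 39640 CPM in sham and 5375, 42280, 36690 and 61960 CPM in control week 4, control replicate 1 being far below the rest.

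A second comparison asked whether control week 4 differed from control skin of weeks 1 to 3 in 12 libraries that include no sham mouse. It shares the 4 control week 4 libraries with the first, so the 2 sets of values are given side by side. Of 18192 genes tested 3696 (20.3%) passed, 1796 higher (9.87%) and 1900 lower (10.4%) in week 4. With total-count scaling 4323 passed, 3214 higher and 1109 lower, and the median over all genes moved by 0.14. Leaving out a control week 4 library left 2374, 2315, 2184 and 2622 calls for replicates 1 to 4.

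Against the other control weeks, 0 of 14 hair shaft keratins and 0 of 12 inner root sheath genes were lower in edgeR's test, and 1 sheath gene, Gata3, was higher. In that test 8 and 9 members had an unadjusted p under 0.05. DESeq2 called 7 lower in each list, the replicate block called 1 lower in each, and without control week 1 replicate 2 or 3 the test called 1 sheath gene lower. The medians were -3.75 and -4.60 and rested in part on single libraries. They were -2.96 and -3.88 without control week 1 replicate 1, -3.05 and -3.35 without control week 2 replicate 1, and -2.67 and -2.93 without control week 3 replicate 4. Krt71 in weeks 1 to 3 ran from 0 to 1490 CPM with a median of 0.892, a range that holds all 4 control week 4 values. The immediate early genes were split: 7 of 23 were higher than in the other weeks (Fos, Egr1, Jun, Ier2, Zfp36, Btg2 and Dusp1) and 4 lower (Fosl1, Nr4a3, Nr4a2 and Ier3). With total-count scaling these were 10 and 3, without control week 4 replicate 2 they were 4 and 3, and without replicate 3 they were 5 and 2. Fos exceeded the other weeks by a log2 ratio of 2.85 ± 0.48 (SE; adjusted p = 0.00121), while Atf3 (0.68; adjusted p = 0.215) and Nr4a1 (-0.36; adjusted p = 0.361) did not pass. Fosl1, an AP-1 subunit, was at 1.31 to 3.94 CPM in control week 4 and at 0.981 to 2.47 CPM in sham, against 11.7 to 159 CPM in weeks 1 to 3 (log2 ratio -5.03; adjusted p = 3.4e-04).

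Genes of body position and of the clock were also compared in both ways. The difference between the 2 comparisons was not tested. Hox genes keep the position of skin along the body axis. Of 31 tested, 18 were higher in control week 4 than in weeks 1 to 3 and 0 lower (19 and 0 with total-count scaling, and 11 higher without control week 4 replicate 2, 3 or 4), with a median of 0.67. Against sham 0 were higher and 1, Hoxc13, was lower (2 and 2 by DESeq2, 3 and 2 without sham replicate 1), with a median of 0.02, or -0.04 with total-count scaling. Hoxc10, a lumbar-level gene, stood at 7.90, 7.24 and 6.25 CPM in sham and at 13.9, 10.5, 8.16 and 10.3 CPM in control week 4. It stood at 0.715 to 2.75 CPM in week 1, 0.611 to 1.81 CPM in week 2 and 5.49 to 10.9 CPM in week 3. Its log2 ratio was 2.16 ± 0.28 (SE; adjusted p = 3.2e-04) against weeks 1 to 3 and 0.58 ± 0.20 (SE; adjusted p = 0.154) against sham.

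Of 20 genes of the circadian clock 11 were lower and 3 higher in control week 4 than in weeks 1 to 3 (10 and 4 with total-count scaling), and 1, the output factor Hlf, was higher than in sham. Against sham 11 of the 20 had an unadjusted p under 0.05, 9 lay above sham without overlap (11.2% of all genes tested did), DESeq2 called 7 higher, and 6 were higher without sham replicate 1. None was higher with total-count scaling, with the block by title number, in the fit of all 35 libraries, or without sham replicate 2 or 3 or control week 4 replicate 2, 3 or 4. Per2, a repressor of the clock, stood at 3.89, 3.77 and 5.22 CPM in sham and at 7.04, 5.93, 7.52 and 7.57 CPM in control week 4. In weeks 1 to 3 it ran from 12.4 to 115 CPM (log2 ratio of week 4 to weeks 1 to 3 -2.51 ± 0.34, SE; adjusted p = 3.5e-04). Npas2, an activator, was higher than in weeks 1 to 3 by 1.68 ± 0.13 (SE; adjusted p = 1.3e-05). Against sham neither Per2 (adjusted p = 0.0949) nor Npas2 (adjusted p = 0.0602) passed. Skeletal muscle genes were lower than in weeks 1 to 3 in 17 of 22 and higher in 0, and in 11 and 7 without control week 4 replicate 2 and 3. In all 12 libraries of weeks 1 to 3 their sum lay above the highest control week 4 library. Whether site or time of day accounts for these differences was not tested.

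**Figure D5:**
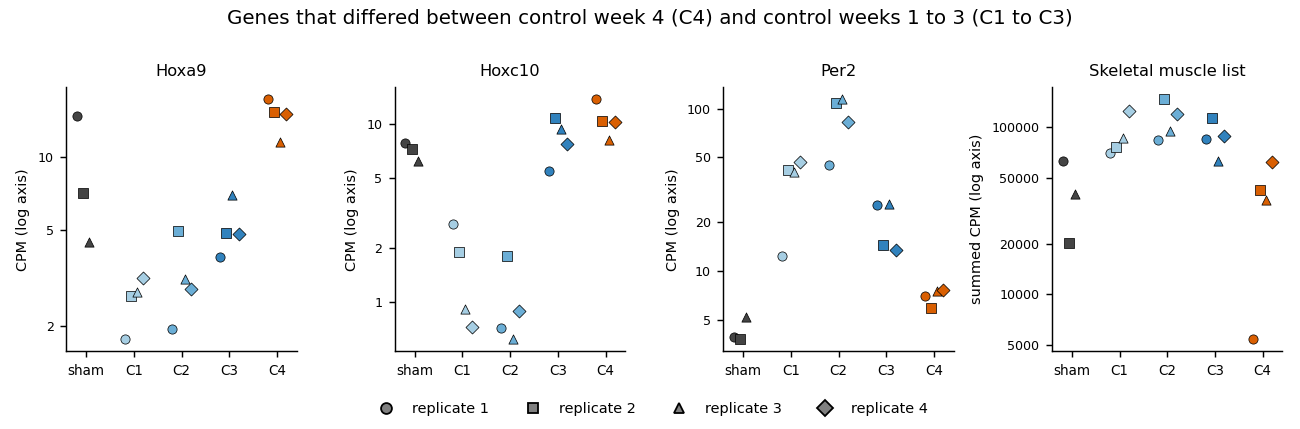
CPM (log axis) of Hoxa9, Hoxc10 and Per2 and summed CPM of 22 skeletal muscle genes in each library of sham skin and of control skin of weeks 1 to 4 (C1 to C4). Per2 in control week 4 lies below all libraries of weeks 1 to 3 and close to sham, and the muscle sum of control week 4 replicate 1 (5375 CPM) is the lowest of all.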

How the data were processed

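RNA of mouse skin was measured by bulk sequencing. The deposited table gives the authors' estimated counts per gene from Kallisto, per the labels' protocol, and the submitters' processing notes name Trim Galore 0.6.7, kallisto 0.46.2 and mm10. Estimated counts were rounded. Of 36106 gene identifiers 35866 matched GENCODE M21 on GRCm38, and 11280 genes had no count in the 7 libraries. Group and replicate came from the sample titles, which do not say whether replicates of a group are separate mice. If they are not, p-values measure only the spread between these samples.

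Genes passing filterByExpr were tested with edgeR 4.0.16 (R 4.3.3, TMM, quasi-likelihood F test, Benjamini-Hochberg). The SE is the log2 fold change divided by the square root of F, and CPM means counts per 1e6 of the TMM-scaled library size over all 35 libraries. Alternatives were DESeq2 1.42.0, other scalings, other filters, blocks and left-out libraries. The code was tested on simulated data. Named genes are the 12 largest changes each way among genes that passed, averaged at least 5 CPM and did not overlap between groups, without predicted-gene names, plus 7 chosen genes and list members. The members and the 43 lists were chosen with earlier results of these data known. Counting intervals (95%) cover only the counting error of the control week 4 counts and leave out the spread among sham libraries. Floors (3 counts) cover counting error only. Promoters are RefSeq windows of GRCm38.p6.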

Additional observations from a re-analysis of the deposited data

Results flagged for a closer look

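For 74 values the 4 control week 4 libraries were examined for 1 library far from the other 3, which chance gives in about 1 in 20 groups, and 4 values had one. The interferon-stimulated genes summed to 345.8 CPM in replicate 2 against 214.7 to 225.2 CPM in the others. S100a8 was at 0 CPM in replicate 1 and at 0.752 to 0.884 CPM in the others. Krtap8-1 was at 0.0427 CPM in replicate 3 and Lyg2 at 0.0384 CPM in replicate 4, each from 1 count, with 0 in the other 3 libraries.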

How the results depend on the processing

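For control week 4 against sham, DESeq2 called 1855 genes and leaving out a library gave 0 to 1705 calls in place of 655. Sham and control week 4 skin differ in mouse, so their replicate numbers are not read as pairs. Deviations of libraries with the same title number correlated between -0.20 and 0.20, and between -0.18 and 0.13 by library-name number. With 3 such pairs by each numbering, the correlations cannot show or exclude pairing. With the title and library-name numbers as a replicate block 133 and 321 genes were called. Total-count scaling called 269 higher and 371 lower (315 and 340 with TMM). A single fit of all 35 libraries called 135 higher and 462 lower. All 655 genes kept their direction wherever they were tested, which is not independent support because they were called on the same libraries. For control week 4 against weeks 1 to 3, leaving out a library gave 2184 to 4279 calls, and the replicate block called 3769 in place of 3696. Of single-gene values under all alternatives 345 kept their side of the threshold, 132 lost it, 1 gained it and 0 reversed. With 3 and 4 libraries a group, the number of calls changed strongly when 1 library was left out. Why it changed was not tested, nor was the effect of depth. Genes at 0 in control week 4 have lower bounds only.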

Other observations

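Members of several gene families passed, and the families were chosen after their values were seen. Of 16 gap junction genes tested 4 were lower and 0 higher, with a family median of -0.04, where 1.9% of all genes tested were lower. Gjb2 stood at 46.4, 336 and 456 CPM in sham and at 5.56, 4.56, 3.46 and 4.54 CPM in control week 4 (log2 ratio -5.97 ± 0.70, SE; edgeR adjusted p = 0.0109), and Gjb6, Gja1 and Gja3 were the other members that fell. Of 4 Padi genes tested 3 were lower. Padi1 and Padi4, which like Padi3 convert arginine to citrulline, fell by 8.53 and 4.98 on the log2 scale. Lrrc15, a leucine-rich repeat membrane protein, stood at 22.2, 564 and 326 CPM in sham and at 1.46 to 1.96 CPM in control week 4.

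Of 13 genes of the Abca transporter family tested 5 were higher and 0 lower, where 1.76% of all genes tested were higher. Besides Abca12 these were Abca5, Abca6, Abca8a and Abca8b, with log2 ratios of 1.26, 1.26, 1.85 and 1.12. Skint genes, which mouse epidermis and thymus express and whose founding member selects epidermal gamma-delta T cells, were higher in 4 of 11 tested and lower in 0 (Skint5, Skint6, Skint9 and Skint10), by 0.97, 0.96, 0.81 and 0.86. Trdc, the constant region of the T cell receptor delta chain, stood at 1.41, 1.47 and 1.55 CPM in sham and at 3.60, 3.36, 3.72 and 3.84 CPM in control week 4 (log2 ratio 1.28 ± 0.21, SE; adjusted p = 0.0206), whereas Cd3d fell.

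Rbpj-ps3, a pseudogene, had 0 counts in all 3 sham libraries and stood at 2.12 to 3.76 CPM in control week 4, at least 62.4-fold higher when 3 counts over the sham group are the floor. It was above 0 in 30 of the 32 other libraries of the series, radiated and control. Reads of a pseudogene can be shared with its parent gene, so this value is uncertain.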
